A study of Mus musculus with 11 samples.

Results

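The Hox genes encode homeodomain transcription factors that pattern the body axis and, in blood, act in stem and progenitor cells. Chromatin over 38 protein-coding Hox genes was described here, out of 21887 protein-coding genes in the RefSeq annotation of GRCm38.p6, the assembly called mm10. They were taken by name, not by any measured value, and lie in 4 clusters. The Hoxa cluster holds 10 of them on chromosome 6 (52162417 to 52260880), Hoxb 10 on chromosome 11 (96194316 to 96368254), Hoxc 9 on chromosome 15 (102921131 to 103036856) and Hoxd 9 on chromosome 2 (74668225 to 74765142). Each cluster is bounded here by the outer ends of its first and last listed gene. For each gene, histone segments over the gene span and factor peaks within 50 kb of it were counted.

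The samples were ChIP-seq libraries (DNA sequenced after immunoprecipitation of chromatin) from 8946 cells, mouse T lymphocytes of an acute T-lymphoblastic leukaemia. All cells had been transduced with retroviruses carrying an epitope-tagged Zmiz1 with an NGFR marker and an activated Notch1 with a GFP marker, and had been sorted for both markers, so no sample lacked either protein. The Flag line carried Flag-Zmiz1 and the Notch1 construct L1601PDP, and the HA line carried HA-Zmiz1 and the construct DEGFDLNRDP, so tag and Notch1 construct differ together. There were 11 samples with 1 library each. In the Flag line these were an input, 3 factor libraries (Rbpj, ICN1 and Flag-Zmiz1) and 4 histone libraries (labelled H3K4me1, H3K4me3, H3K27ac and H3K27me3), and in the HA line an input, ICN1 and HA-Zmiz1. Factor samples were fixed with DSG and formaldehyde, and histone samples with formaldehyde alone. Zmiz1 is a transcriptional coactivator that binds Notch1, ICN1 is the active, cleaved form of Notch1, and Rbpj is the protein that carries ICN1 to DNA. Histone marks were profiled in the Flag line, so every histone value below is of that line. With 1 library per group there was no spread between replicates, no test was run, and every count below is a description. The cells were profiled in bulk, so a mark in fewer cells and less of it in each cell cannot be told apart.

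Hox genes stand in the order in which they are used along the body axis. Genes with low numbers act in the head and neck, and those with high numbers in the lumbar region, limbs and urogenital tract. In cells that do not use them, Polycomb complexes hold the clusters silent under trimethylated lysine 27 of histone H3 (H3K27me3), often as a single domain. Trithorax-group complexes, among them the MLL proteins, oppose this and place H3K4me3 at promoters in use, while acetylated lysine 27 (H3K27ac) and H3K4me1 mark active promoters and enhancers. In the T-cell lineage, HOXA genes are active in early progenitors and shut off as thymocytes mature, and they are switched on again in one class of human T-cell leukaemia.

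The labels of 2 histone libraries went against the data and against the names of the deposited files, in which the marks of these libraries are exchanged. The library labelled H3K27ac had a segment over 0 of 20 housekeeping genes and 0 of 20 T-cell markers, whereas the library labelled H3K27me3 and the H3K4me3 library each had one over 20 of 20 of both. Lck, the kinase at the T-cell receptor, had a fold of 10.4 in the library labelled H3K27me3. Markers of other blood lineages met segments of the library labelled H3K27ac in part, at 4 of 8 B-cell, 3 of 8 myeloid and 3 of 6 erythroid genes, with H3K4me3 over 2 of 8, 1 of 8 and 4 of 6. Pax5, which sets B-cell identity, had a fold of 4.53 in the library labelled H3K27ac, over 31.5% of its span. It also met an H3K4me3 segment, with a fold of 2.72. The names "labelled H3K27ac" and "labelled H3K27me3" are used throughout, and every direction drawn from either rests on this mismatch. The factor libraries held 13.5 to 19.0 M filtered tags. Total read numbers of the histone libraries are not given in the sources used here.

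Promoters of 5 members are shown for the marks they carry, as the 250 bases before the start site in the gene's own direction, with each CpG in capitals. Sequences are from RefSeq (GRCm38.p6). The first pair, Hoxb4 (chr11:96318017-96318266, plus strand) and Hoxa13 (chr6:52260881-52261130, minus strand), carried H3K4me3 within a segment labelled H3K27ac. Hoxb4 drives self-renewal of blood stem cells when overexpressed, and Hoxa13 patterns digits and the urogenital tract. The second pair, Hoxa9 (chr6:52227371-52227620, minus strand) and Hoxa10 (chr6:52240855-52241104, minus strand), lay in a segment labelled H3K27ac and in no H3K4me3 segment. Both are the Hoxa genes best known from leukaemia. Hoxa5 (chr6:52204588-52204837, minus strand), which acts in lung and in the cervical skeleton, had no segment of any of the 4 histone libraries.
Hoxb4: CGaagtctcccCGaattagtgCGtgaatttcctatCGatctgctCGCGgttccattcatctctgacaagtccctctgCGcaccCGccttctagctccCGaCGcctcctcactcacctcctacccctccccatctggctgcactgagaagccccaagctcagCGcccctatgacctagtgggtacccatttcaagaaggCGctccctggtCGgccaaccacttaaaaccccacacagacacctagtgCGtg
Hoxa13: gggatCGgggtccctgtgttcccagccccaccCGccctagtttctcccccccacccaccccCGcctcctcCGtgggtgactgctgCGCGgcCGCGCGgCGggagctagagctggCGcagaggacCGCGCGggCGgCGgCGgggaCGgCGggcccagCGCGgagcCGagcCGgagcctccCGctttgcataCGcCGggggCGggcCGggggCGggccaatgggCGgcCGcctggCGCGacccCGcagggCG
Hoxa9: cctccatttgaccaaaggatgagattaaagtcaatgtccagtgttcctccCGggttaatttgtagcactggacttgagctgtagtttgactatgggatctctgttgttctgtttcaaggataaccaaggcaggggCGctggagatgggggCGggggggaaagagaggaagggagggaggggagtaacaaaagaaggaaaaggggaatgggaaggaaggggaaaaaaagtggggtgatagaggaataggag
Hoxa10: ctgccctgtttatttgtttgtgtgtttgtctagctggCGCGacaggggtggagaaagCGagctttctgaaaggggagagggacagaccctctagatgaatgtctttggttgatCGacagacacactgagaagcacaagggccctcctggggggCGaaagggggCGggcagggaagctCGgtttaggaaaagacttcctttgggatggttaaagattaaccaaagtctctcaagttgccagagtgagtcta
Hoxa5: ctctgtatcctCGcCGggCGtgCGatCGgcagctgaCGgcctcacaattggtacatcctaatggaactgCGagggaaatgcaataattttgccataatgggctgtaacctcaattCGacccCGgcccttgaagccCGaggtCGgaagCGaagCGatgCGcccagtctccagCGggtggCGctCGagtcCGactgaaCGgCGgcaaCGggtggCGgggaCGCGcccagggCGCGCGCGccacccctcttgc
CpG number did not sort these promoters by mark: the printed stretches held 14 in Hoxb4, 35 in Hoxa13, 3 in Hoxa9, 7 in Hoxa10 and 28 in Hoxa5. Another RefSeq start of Hoxa10, not printed, had 20 CpG before it. It too lay in a segment labelled H3K27ac and in no H3K4me3 segment.

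The library labelled H3K27ac covered nearly all of the 4 clusters. Segments of it lay over 36 of the 38 Hox genes, while 24.6% of all protein-coding genes had one. It covered 32 Hox genes from end to end, against 2.52% of all genes, and at least 50% of the span of 35, against 7.56%. Counted in bases, it took up 94.4% of the 485 kb in the clusters and 6.69% of all protein-coding gene spans. The Hoxc cluster was covered at 100%, Hoxb at 98.2%, Hoxd at 97.1% and Hoxa at 78.3%. The other 3 histone libraries were sparse there: H3K4me1 covered 3.25% of the clusters (11.5% of all gene spans), H3K4me3 2.41% (4.22%) and the library labelled H3K27me3 0.165% (7.83%). In the map of the clusters, the track labelled H3K27ac runs almost unbroken, and the other marks are islands in it.

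**Figure D1:**
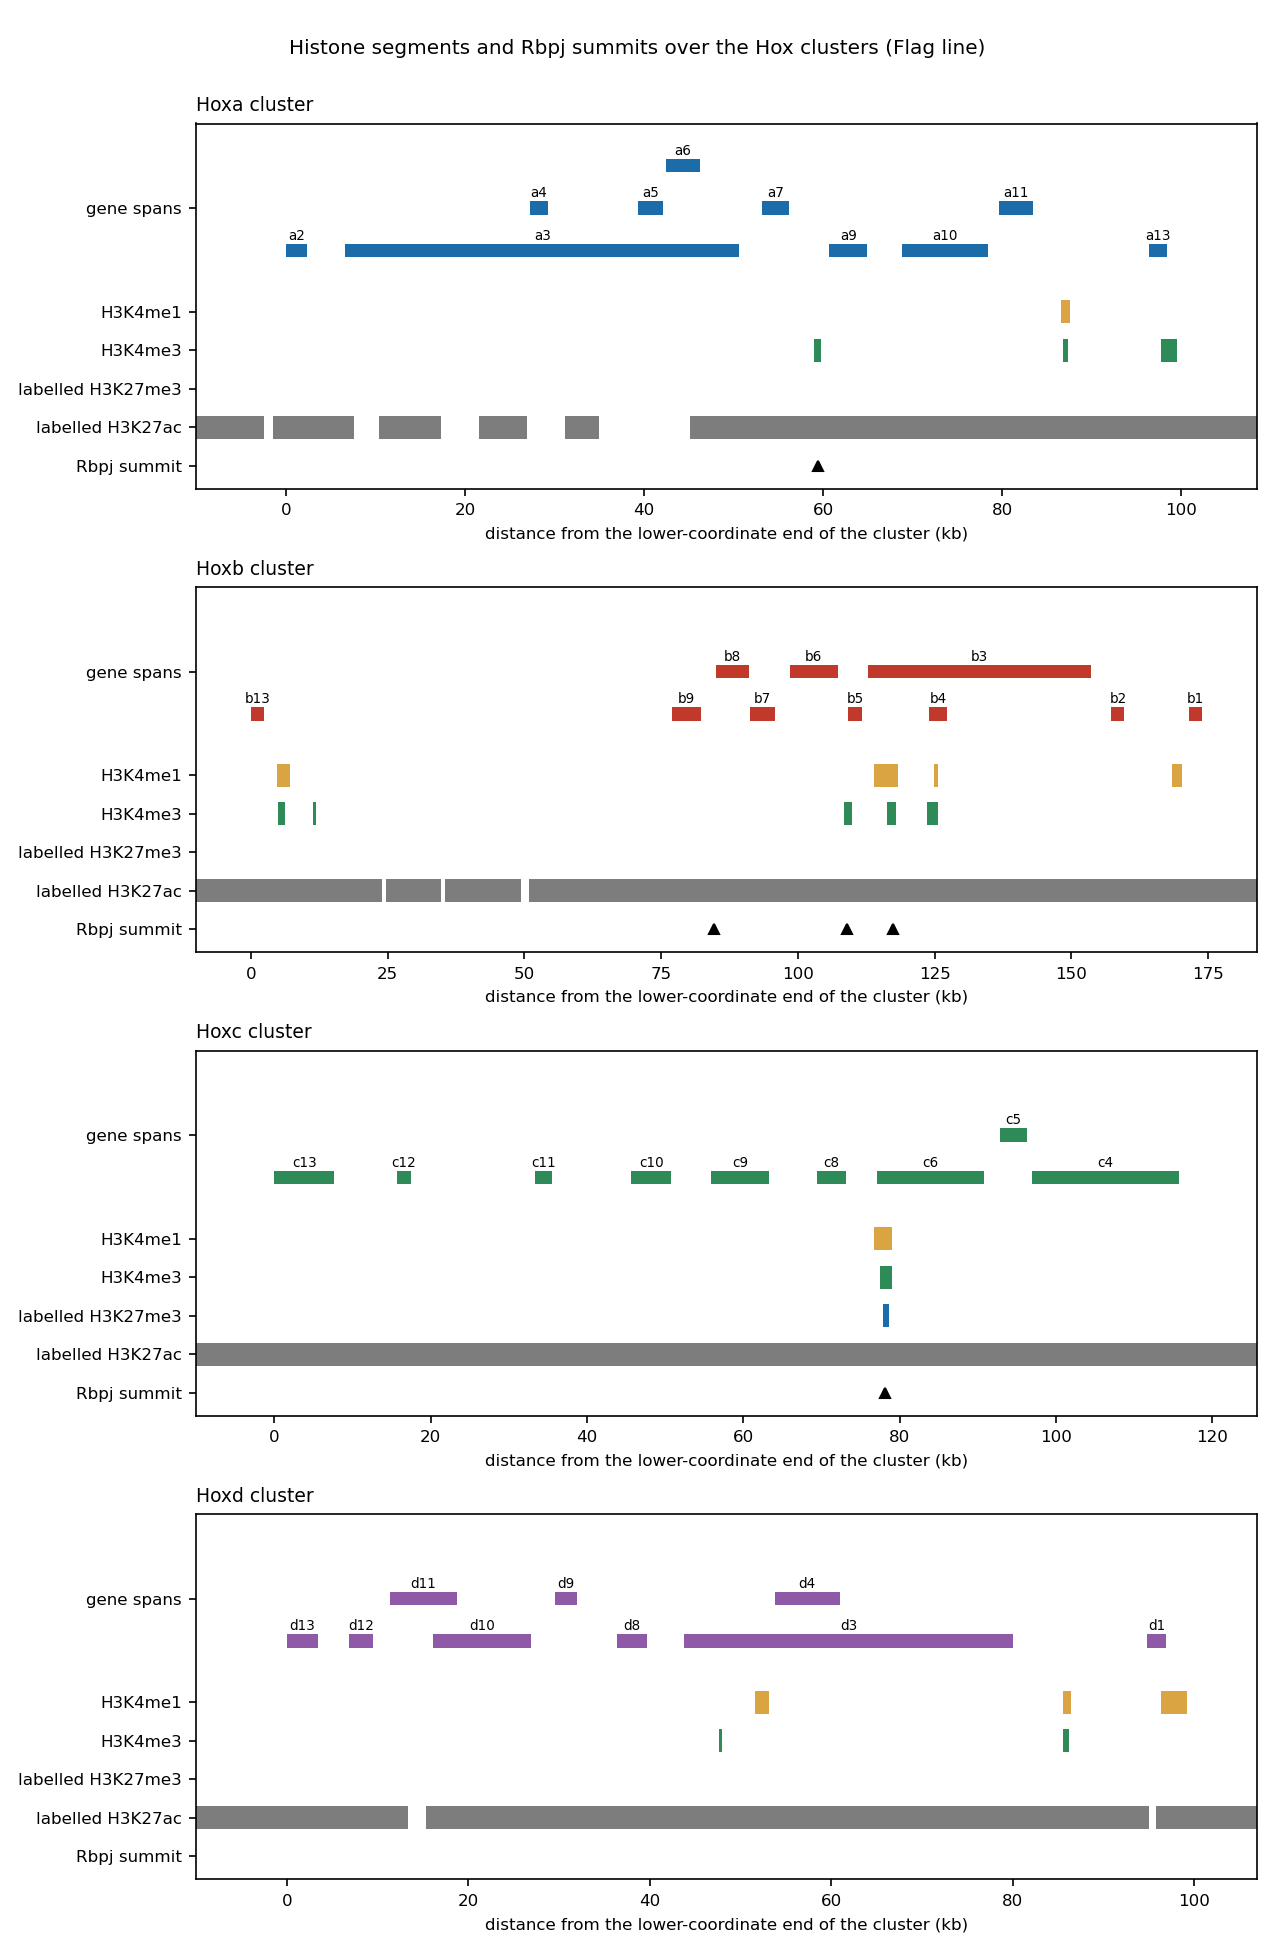
Map of the Hoxa, Hoxb, Hoxc and Hoxd clusters, each from its lower-coordinate end in kb; bars are gene spans (top rows, staggered where they lie close) and segments of the 4 histone libraries of the Flag line, and triangles are Rbpj peak summits. Segments labelled H3K27ac fill 78.3% of Hoxa, 98.2% of Hoxb, 100% of Hoxc and 97.1% of Hoxd, and the 4 gaps in Hoxa all lie within the Hoxa3 span.

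Each cluster was held mainly by 1 or 2 very wide segments. In Hoxc a single segment of 204.0 kb (102887801 to 103091800) covered all 9 members, from Hoxc13, a gene of hair and nail formation, to Hoxc4. It was the widest of the 25172 segments in the library and held 18159 precipitated against 4795 control reads, a fold of 6.89 over the control. The 95% interval of that fold, from exact binomial limits on these reads, was 6.67 to 7.11. Such intervals cover counting error only. In Hoxb a segment of 144.8 kb ran over 9 members, Hoxb1 to Hoxb9, with a fold of 6.60 (6.33 to 6.89), and one of 58.6 kb lay over Hoxb13, a gene of the prostate and tail bud, with a fold of 6.40 (5.99 to 6.85). Between these stood 2 weaker segments over no member, with folds of 2.28 and 2.52.

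In Hoxa a segment of 125.6 kb covered Hoxa7, Hoxa9, Hoxa10, Hoxa11 and Hoxa13 wholly and the ends of the Hoxa3 and Hoxa6 spans. It held 7730 precipitated and 2129 control reads, a fold of 6.60 (6.29 to 6.93). It went on past the cluster over Evx1, a homeobox gene that lies 52.6 kb beyond Hoxa13. The other end of Hoxa differed. Hoxa2, which patterns the hindbrain and the second pharyngeal arch, lay in a segment of 9.0 kb with a fold of 4.32 (3.50 to 5.35), and the rest of the Hoxa3 span met 3 short segments with folds of 2.91, 2.01 and 2.76. All 4 intervals lay below that of the 125.6 kb segment.

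In Hoxd, Hoxd13 and Hoxd12, which pattern the digits, lay with part of Hoxd11 in a segment of 25.0 kb with a fold of 7.02 (6.30 to 7.84). This was the highest fold of the 13 segments labelled H3K27ac in the clusters, though its interval overlaps that of the Hoxc segment. Evx2, the homeobox gene 6.71 kb from Hoxd13, shared this segment. A second segment of 79.6 kb had a fold of 6.17 (5.80 to 6.56) and covered Hoxd3, Hoxd4, Hoxd8, Hoxd9 and Hoxd10. The promoter and start of Hoxd1, at the low-numbered end, also lay in this second segment. More of the Hoxd1 span lay in a segment of 26.4 kb with a fold of 2.68 (2.38 to 3.02).

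**Figure D2:**
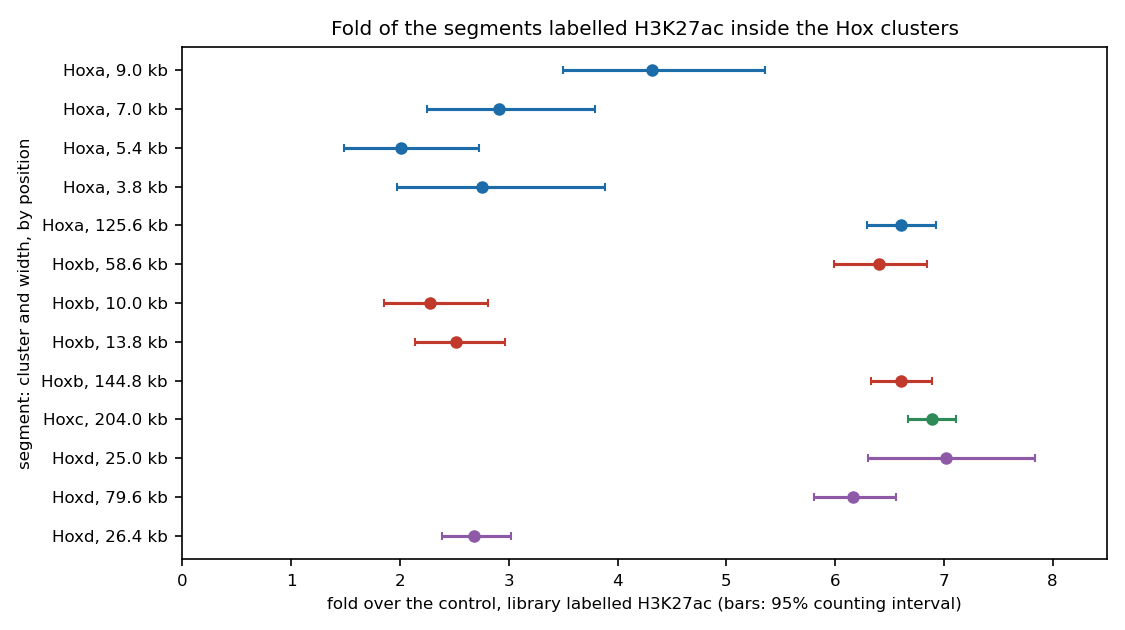
Fold over the control of the 13 segments labelled H3K27ac inside the Hox clusters, in order of position, with the 95% counting interval as a bar; colours mark the clusters. The 6 segments that cover most members sit between 6.17 and 7.02, and the other 7 sit between 2.01 and 4.32.

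The median segment of this library was 4.6 kb wide with a fold of 2.26. By width the Hoxc, Hoxb, Hoxa and Hoxd segments ranked 1, 3, 4 and 9 among the 25172, and the Hoxb13 segment ranked 19. Of the 34 segments of 50 kb or more, these 5 ranked 1 to 5 by fold, a limit chosen after the values were seen. Across genes with a segment, the median of the best fold was 6.60 for the Hox genes and 3.07 for all protein-coding genes. Members under 1 segment share its fold, so these are values of a few places and not of 36 genes.

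**Figure D3:**
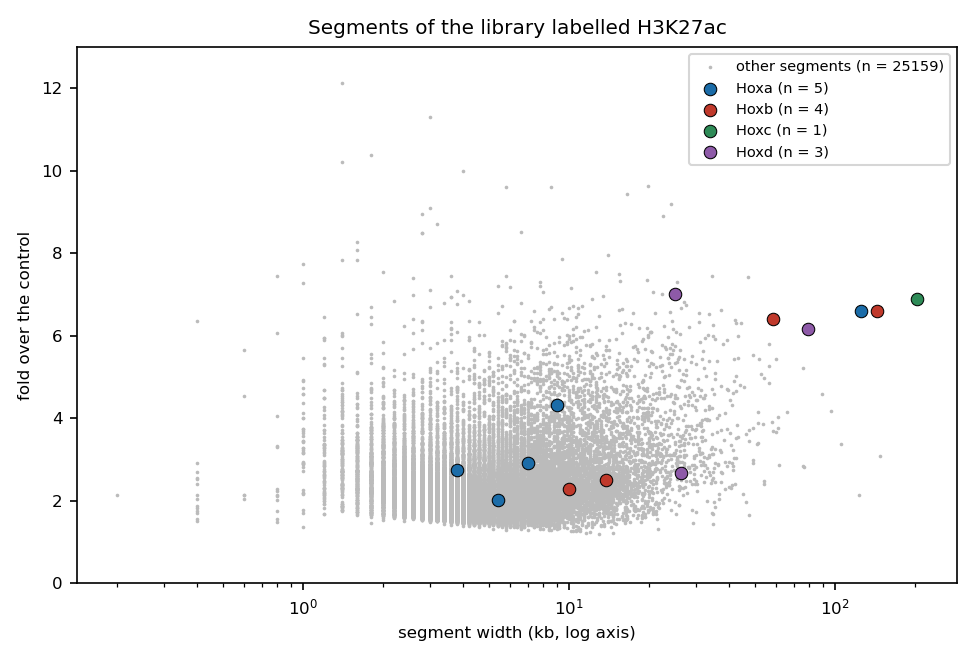
Width in kb (log axis) against fold over the control for all segments labelled H3K27ac; grey points are the 25159 segments outside the clusters and coloured points the 13 inside. The 5 wide Hox segments of 58.6 to 204.0 kb stand at folds of 6.17 to 6.89, and the 25.0 kb Hoxd segment at 7.02. The remaining Hox segments lie among the grey points.

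Of the 38 genes, 6 were not wholly covered, and 4 of them lie side by side in Hoxa. Hoxa4 and Hoxa5 were the only members with no segment labelled H3K27ac, and no segment of the other 3 libraries lay over them either. Hoxa4 falls in an uncovered stretch of 4.2 kb (52189401 to 52193600) and Hoxa5 in a longer one (52197401 to 52207600). The 2 other gaps in Hoxa, of 2.8 and 4.2 kb, touch Hoxa3 alone. Hoxa6 was covered over 28.1% of its span and Hoxa3 over 51.4%. The RefSeq span of Hoxa3 is 44.0 kb long and contains Hoxa4, Hoxa5 and Hoxa6, so the same stretches count for each. Outside Hoxa, Hoxd11, which shapes the forearm and kidney, was covered over 73.2%, with a gap of 2.0 kb inside it, and Hoxd1 over 63.0%, with a gap of 0.8 kb. The 3 gaps in Hoxb, of 0.8, 0.8 and 1.6 kb, touch no member. A stretch without a segment is one where no enrichment was called at this depth, and says nothing of a level.

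**Figure D4:**
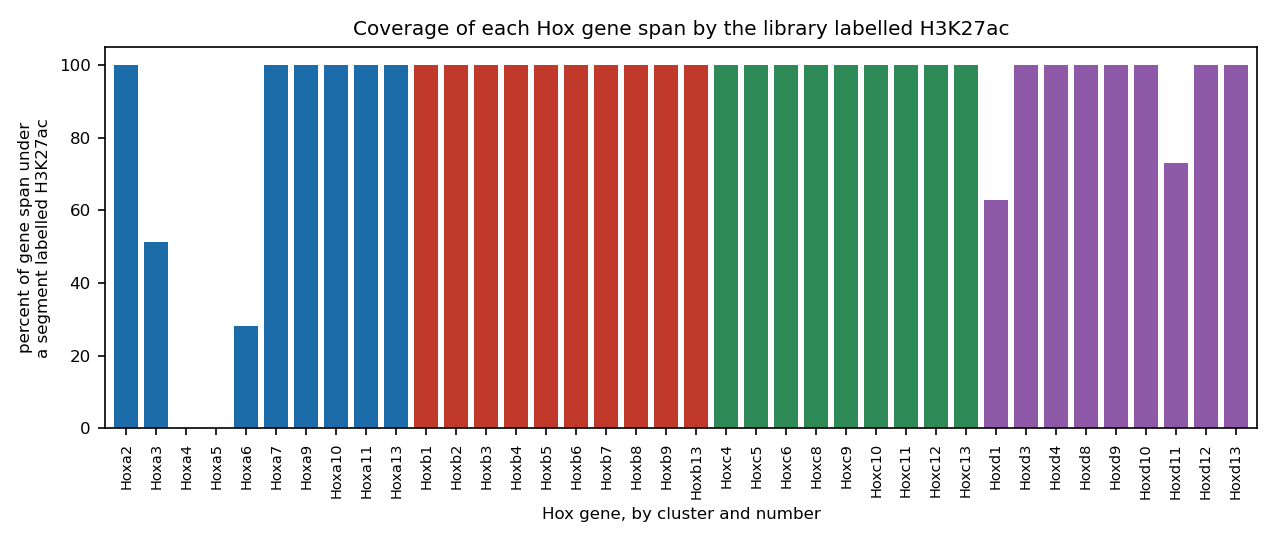
Percent of each Hox gene span under segments labelled H3K27ac, by cluster and number, 1 bar per gene. The bars of 32 genes reach 100%; Hoxa4 and Hoxa5 stand at 0, Hoxa6 at 28.1%, Hoxa3 at 51.4%, Hoxd1 at 63.0% and Hoxd11 at 73.2%.

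By position along the axis, the 16 members of groups 9 to 13 all met a segment labelled H3K27ac, and 15 of them wholly. In groups 4 to 8 it was 13 of 15, with 12 wholly covered, and in groups 1 to 3 it was 7 of 7, with 5 wholly covered. The shortfall in groups 4 to 8 was in Hoxa, where 1 of 4 members was wholly covered, whereas all 5 in Hoxb, all 4 in Hoxc and both in Hoxd were.

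H3K4me3 was found at few Hox genes. A segment lay over 6 of 38 members, against 56.0% of all genes: Hoxa13, Hoxb3, Hoxb4, Hoxb5, Hoxc6 and Hoxd3. All 6 also met a segment labelled H3K27ac, so 15.8% of the Hox genes had this pairing, near the 12.1% of all genes. The same pairing with no segment labelled H3K27me3 was found at 5, or 13.2%, and at 4.35% of all genes. The clusters held 11 H3K4me3 segments, 6 over a member and 5 over none. All 11 met a segment labelled H3K27ac, as did 10.8% of all H3K4me3 segments. Such segments cover 94.4% of the cluster bases, so this overlap is nearly given, for the 11 segments and for the 6 genes. A segment labelled H3K27me3 was met by 1 of the 11, and by 84.7% of all H3K4me3 segments. Their median fold was 3.68, and that of all 26767 H3K4me3 segments was 4.60. By gene, the median best fold was 7.82 over the 6 Hox genes with a segment and 14.2 over all protein-coding genes with one.

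The highest fold was at the start of Hoxb4, inside the Hoxb3 span, from 96318001 to 96320000. It held 445 precipitated and 52 control reads, a fold of 13.1 (9.83 to 17.9), and spans the Hoxb4 promoter printed above. A second, within Hoxb3 from 96310601 to 96312200, had a fold of 7.88 (6.05 to 10.4). Its control depth was 41.9 reads per kb, against 19.3 over the whole 144.8 kb segment around it, and whether that bears on its fold was not tested. Hoxb3 acts in the hindbrain and in blood progenitors, and its count of H3K4me3 rests on both places. Hoxb5, also active in blood stem cells, met a segment with a fold of 1.68 (1.08 to 2.62), 99.1% of the way down the list by fold.

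Outside Hoxb, H3K4me3 over members was found at 3 places. The segment at the Hoxa13 promoter had 121 precipitated and 22 control reads, a fold of 8.44 (5.33 to 14.0). Within Hoxc6, a gene of the thoracic region, a segment of 1.6 kb had a fold of 7.21 (5.10 to 10.4). Hoxd3 met one of 0.4 kb with a fold of 2.71 (1.32 to 5.83), which also lies at the antisense gene Hoxd3os1. The interval of Hoxb5 lies below those of Hoxa13, Hoxc6 and both Hoxb3 segments, which overlap one another, and no test of order was run among the latter. Of the 5 segments over no member, 3 met long non-coding genes: Haglr in Hoxd (4.18), Hoxa11os in Hoxa (3.68) and Gm30134 beside Hoxb13 (3.44). One lay between Hoxa7 and Hoxa9 (3.07) and another 8.99 kb from Hoxb13 (2.30).

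H3K4me1 lay over 5 of 38 members, Hoxb3, Hoxb4, Hoxc6, Hoxd1 and Hoxd3, against 55.4% of all genes. Their best folds ran from 1.88 to 2.11, and the median over all genes with a segment was 2.74. Of the 11 H3K4me3 segments in the clusters, 6 met H3K4me1, compared with 92.6% of all H3K4me3 segments. The library labelled H3K27me3 lay over 1 of 38 members, against 52.2% of all genes. That member was Hoxc6, where a segment of 0.8 kb (102999001 to 102999800) had 33 precipitated and 23 control reads, a fold of 2.23 (1.27 to 3.98). Hoxc6 was therefore the one Hox gene that met a segment of all 4 libraries.

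Rbpj peaks lay inside 3 of the 4 clusters. Within 50 kb, 25 of 38 members had one, and so did 67.2% of all genes, a share near the background and no result about the Hox genes. Within 5 kb it was 9 of 38, against 48.7% of all genes: Hoxa7, Hoxa9, Hoxb3, Hoxb5, Hoxb6, Hoxb8, Hoxb9, Hoxc6 and Hoxc8. These counts come from 5 peaks inside the clusters and 1 other, 39.6 kb from Hoxb1, so neighbours share a peak. All 5 lay in a segment labelled H3K27ac, where 5.31% of the 20993 Rbpj peaks lie. With 94.4% of the cluster bases under such segments, that is nearly given and no result about Rbpj. Of the 5, 4 lay in H3K4me3, as did 70.9% of Rbpj peaks in segments labelled H3K27ac. The clusters held 10.3 Rbpj peaks per Mb, and all segments labelled H3K27ac held 7.26. The first rate rests on these 5 peaks alone, of which 2 were left with p of 1e-10 or less, so the rates cannot be ordered.

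The strongest was inside Hoxc6, at 102999212 to 102999383, with a fold of 11.6 over the local input and a pileup of 21 tags. It stood in the upper 6.37% of the Rbpj list by fold and lay in segments of all 4 histone libraries. Next came a peak between Hoxa7 and Hoxa9, 1.23 kb from Hoxa9, at 52221747 to 52221872, with a fold of 9.61 and a place in the upper 13.6%. It coincided with the H3K4me3 segment between these genes. The 3 peaks in Hoxb were weaker. One, 0.169 kb from Hoxb5, had a fold of 5.83, below the list's median of 6.47, and lay in the weak H3K4me3 segment there. The peak 0.428 kb from Hoxb8, a gene of myeloid progenitors, had a fold of 3.87, and the one within Hoxb3 had a fold of 3.38, rank 20852 of 20993. Local input at the last pair was 4.08 and 4.89 times the library's mean, against 1.04 to 1.92 at the other 3, and its part in these peaks was not tested. With p of 1e-10 or less, 2 of the 5 peaks were left, those at Hoxc6 and beside Hoxa9. In Hoxd the nearest Rbpj peak was 89.1 kb away, inside Lnpk, with a fold of 8.34.

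No Zmiz1 or ICN1 peak was listed within 50 kb of any Hox gene. The count was 0 of 38 for Flag-Zmiz1 (4.06% of all genes), HA-Zmiz1 (27.8%), ICN1 in the Flag line (0.215%) and ICN1 in the HA line (3.42%). Within 5 kb, where the count is also 0 of 38 for all 4, the shares of all genes were 1.36%, 12.1%, 0.0822% and 1.21%. With lists of 82 ICN1 peaks in the Flag line and 414 in the HA line, and with 38 genes at 4 places, 0 is near the background for 3 of these lists. HA-Zmiz1, with 4984 peaks, is the list in which the background was far above 0. Its nearest peak was 73.4 kb from Hoxb1, 22.8 kb from the T-cell adaptor gene Skap1, with a fold of 8.91, and lay in H3K4me3 and in no segment labelled H3K27ac. From Hoxc, Hoxd and Hoxa the nearest HA-Zmiz1 peaks were 129, 304 and 380 kb away. Flag-Zmiz1 peaks stood 67.2 kb from Hoxb (within Ttll6, fold 12.1), 68.1 kb from Hoxd (6.07), 69.3 kb from Hoxc (7.19) and 625 kb from Hoxa. All 3 nearer ones lay in segments labelled H3K27ac. For ICN1 in the HA line the distances ran from 658 kb (Hoxa) to 2.02 Mb (Hoxc). Weak binding below the peak limit was not detectable here.

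Promoter windows of 300 bp, from 250 before to 50 after the start, were given by RefSeq for 22 of the 38 genes, 24 windows in all. Of these, 22 lay under a segment labelled H3K27ac (91.7%, against 15.6% of 32851 windows), and the 2 others were that of Hoxa5 and the second start of Hoxd11, which falls in the 2.0 kb gap. H3K4me3 lay over 2, those of Hoxb4 and Hoxa13 (8.33% against 37.1%). No Hox window met the library labelled H3K27me3 or an Rbpj peak, which 35.2% and 22.1% of all windows did. Among all windows under a segment labelled H3K27ac, where most Hox windows lie, these shares were 9.21% and 6.80%. Hox windows held a median of 14.5 CpG, from 4 in Hoxa9, Hoxd4 and one Hoxd11 start to 45 in Hoxa13, and the median of all windows was 7.0. All windows under a segment labelled H3K27ac had a median of 12.0 and those under H3K4me3 one of 22.0.

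The core of the motif to which Rbpj binds, TGGGAA, was searched on both strands. It occurred in 5 of the 24 Hox windows, 20.8%, and in 25.6% of all windows: those of Hoxa3, Hoxa6, Hoxa9, Hoxa13 and Hoxd3. The longer GTGGGAA, which contains the first, occurred in 1, that of Hoxa3 (4.17% against 6.38%). A match is a string of letters and not a bound site, and no Rbpj peak lay in any of these windows.

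Other homeobox genes showed the same library in part. The ParaHox and Evx genes, relatives of the Hox genes, had a segment labelled H3K27ac at 7 of 8 and H3K4me3 at 0 of 8. Cdx2, an intestinal master gene, had a fold of 5.94, and Pdx1, which directs pancreas formation, 6.09. Of 53 other developmental homeobox genes, 44 had a segment labelled H3K27ac and 25 were wholly covered, with a median best fold of 5.37. Irx5, Pax2, Lhx9 and Pax7 had folds of 7.96, 7.43, 7.31 and 7.07, and the highest fold at a Hox gene was 7.02. H3K4me3 lay over 17 of the 53 and HA-Zmiz1 within 50 kb of 7. In the forkhead family, which has members in many tissues, the numbers were 26 of 44 with a segment labelled H3K27ac, 14 wholly covered, and 20 with H3K4me3.

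The partners and regulators of Hox proteins varied in their marks. The TALE homeodomain proteins Pbx, Meis and Pknox bind DNA together with Hox proteins. Of these 9 genes, 4 had a segment labelled H3K27ac, none of them over its whole span, and 6 had H3K4me3. Over all protein-coding genes, 24.6% had a segment labelled H3K27ac and 56.0% had H3K4me3. Meis1, the partner of Hoxa9 in leukaemia, had a fold of 4.92 in the library labelled H3K27ac, over 3.92% of its span, and no segment of the other 3. Meis2 had 5.35 in that library, over 70.0% of its span, and 3.01 in H3K4me3. Pbx2, Pbx3, Pbx4 and Pknox1 had H3K4me3 folds of 22.0, 17.0, 19.6 and 14.0 and no segment labelled H3K27ac; Pbx4, with no segment labelled H3K27me3 either, was named after its values were seen. Of 14 Polycomb genes, all 14 had H3K4me3 and a segment labelled H3K27me3, among them Suz12 and Eed, core subunits of the H3K27 methyltransferase, with folds of 8.31 and 7.58 in the latter, and 5 also had one labelled H3K27ac, with folds up to 3.86. All 12 Trithorax and activator genes had H3K4me3 and a segment labelled H3K27me3, and 1 had one labelled H3K27ac. Housekeeping genes had H3K4me3 and a segment labelled H3K27me3 at 20 of 20, so this pairing is not particular to these lists. Kdm6a, a demethylase of H3K27, had a fold of 8.47 in the library labelled H3K27me3.

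**Figure D5:**
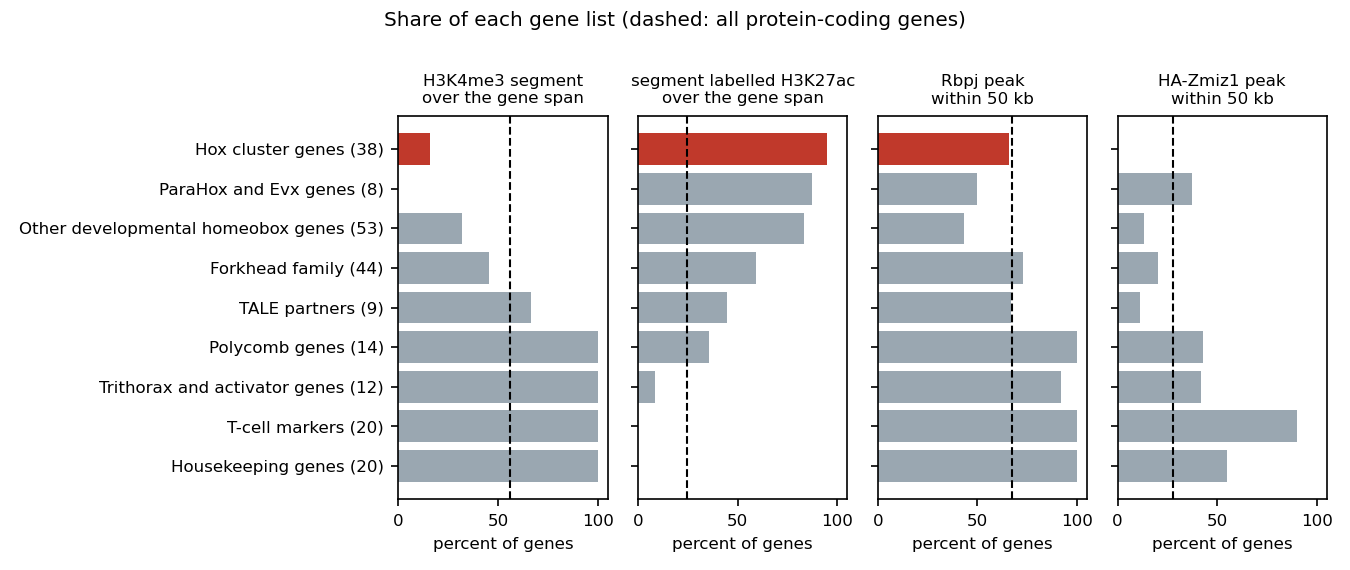
Percent of genes in each list, with the number of genes in brackets, that have an H3K4me3 segment, a segment labelled H3K27ac, an Rbpj peak within 50 kb or an HA-Zmiz1 peak within 50 kb; dashed lines are all protein-coding genes (56.0%, 24.6%, 67.2% and 27.8%). Hox genes, in red, stand at 15.8%, 94.7%, 65.8% and 0%.

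Segments labelled H3K27ac ran on past the outer members, over Evx1 beyond Hoxa and over 83.6% of Evx2 beyond Hoxd, and other marks were met farther out. On the far side of Hoxd, the mitochondrial import gene Mtx2, 60.7 kb from Hoxd1, had an H3K4me3 fold of 12.8, a fold of 4.34 in the library labelled H3K27me3 and no segment labelled H3K27ac. Skap2, 149.9 kb from Hoxa2, had H3K4me3 at 16.2 and was covered by the library labelled H3K27ac over 5.48%, at a fold of 1.76. On the lower side of Hoxb, Ttll6 and Calcoco2 were covered by the library labelled H3K27ac over 93.3% and 83.6%, with no H3K4me3. Next on that side, Atp5g1, 118.6 kb from Hoxb13, had an H3K4me3 fold of 14.9. Beyond Hoxc4, Smug1, a DNA repair gene 116.4 kb away, met both kinds of segment, at 34.1% for H3K4me3 and 28.4% for the library labelled H3K27ac. In each direction, H3K4me3 was met at the first, the second or the third non-Hox protein-coding gene outside the cluster. Of all protein-coding genes 56.0% had H3K4me3, so meeting it among a few neighbours says little of a border.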

How the data were processed

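Deposited values were used as the authors made them. The submitters' processing notes list the mm10 build and, without roles, MACS2 2.0.10, SICER 1.1, Bowtie 0.12.7, HOMER 4.2 and FastQC 0.10.0. Per the file headers, MACS 2.0.10.20120913 called factor peaks against the input of the same line at p of 1e-05, and HA-line headers name pooled reads. For each peak the authors deposited a pileup signal, a −log10 p and a fold enrichment over local input (a ratio). For each histone segment they deposited precipitated and control read counts, their ratio as a fold, a false discovery rate and a p-value, in steps of 200 bp. Segment starts in the files count from 0 and were raised by 1.

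Segments were assigned to a gene by 1 bp of overlap with its RefSeq span, and peaks by a gap of at most 50 kb. Gene spans carry no exons, so exon, intron and UTR positions were not used here. Counting intervals are exact (Clopper-Pearson) at 95%. The local input ratio was ((pileup + 1) / fold − 1) over the library's mean, with high-input peaks at 10 or more times. Peak totals were 581 for Flag-Zmiz1, 4984 for HA-Zmiz1, 82 and 414 for ICN1 in the Flag and HA lines, and 20993 for Rbpj, and the inputs held 36.4 and 26.8 M tags. Overlap code was tested on simulated data. The work used Python 3.11.15, pandas 2.3.3 and scipy 1.17.1.

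Every listed Hox gene could be named, and every factor peak in a cluster or within 5 kb. So could up to 4 genes with the highest fold per comparison list and library, and the 3 nearest non-Hox protein-coding genes on each side. The members and lists were chosen with earlier results of these data known.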

Additional observations from a re-analysis of the deposited data

How the results depend on the processing

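No paired analysis was possible because each group has 1 library. Of 55 alternatives over 18 results, 36 left a count of genes or peaks within 1.5 times. Most of the 36 were Zmiz1 or ICN1 counts of 0 under a narrower window or a stricter limit. With no peak within 50 kb these could only stay at 0, so the tally is no measure of robustness. Every coverage moved. It was held to the exact 95% interval of its bases, which is narrow enough that small shifts fall outside it. Requiring 50% of the span covered left 0 genes with H3K4me1, 1 with H3K4me3, 0 with the library labelled H3K27me3 and 35 with that labelled H3K27ac. Keeping the upper 50% of segments by fold left 0 genes with H3K4me1 and 0 with the library labelled H3K27me3, and changed cluster coverage to 0.371% for H3K4me1, 1.21% for H3K4me3, 0% for the library labelled H3K27me3 and 93.2% for that labelled H3K27ac. Spans were also replaced by the RefSeq promoter windows or, for the 16 genes without one, by 1 kb around both span ends. With these, 1 gene had H3K4me1, 4 had H3K4me3, 1 had a segment labelled H3K27me3 and 37 had one labelled H3K27ac. Over the union of gene spans, coverage was 3.40% for H3K4me1, 2.55% for H3K4me3, 0.292% for the library labelled H3K27me3 and 91.2% for that labelled H3K27ac. Within 200 kb, Flag-Zmiz1 peaks were found for 26 genes, HA-Zmiz1 for 15 and Rbpj for 38, and ICN1 for 0 in either line. Within 5 kb, Rbpj was found for 9. At p of 1e-10 or less, 2 Rbpj peaks were left inside the clusters. The wider windows and stricter limits differ by construction from the main ones, and a cause beyond that was not tested. The lists ran from 82 to 20993 peaks at 13.5 to 19.0 M tags, with Flag-Zmiz1 (581 peaks) and HA-Zmiz1 (4984) at about the same depth, and a missing peak in any list is no measure of absence.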

Other observations

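The non-coding genes of the Hox clusters were covered like the coding ones. The 4 clusters hold 6 miRNA genes, and their hairpins were wholly under segments labelled H3K27ac, with no H3K4me3 over any of them. They are shown because the paralogs in different clusters share a seed, bases 2 to 8 of the mature RNA, in capitals (RefSeq, GRCm38.p6). Mir196b lies in Hoxa (chr6:52230081-52230165, fold of the segment 6.60), Mir196a-1 in Hoxb (chr11:96265164-96265265, 6.60) and Mir196a-2 in Hoxc (chr15:102973350-102973434, 6.89), and the latter pair give the same mature RNA. Mir10a lies in Hoxb, upstream of Hoxb4 (chr11:96317165-96317274, 6.60), and Mir10b in Hoxd, within the Hoxd4 span (chr2:74726070-74726137, 6.17).
miR-196b-5p: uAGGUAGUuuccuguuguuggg
miR-196a-5p: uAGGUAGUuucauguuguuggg
miR-10a-5p: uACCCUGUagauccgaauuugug
miR-10b-5p: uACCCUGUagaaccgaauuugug
The miR-196 RNAs are known to repress Hoxb8 and other Hox transcripts. Mir615, within Hoxc5, was covered too. The Mir10a hairpin ends less than 1 kb before the H3K4me3 segment at Hoxb4, and that segment does not reach it.

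Hotair, the long non-coding RNA between Hoxc11 and Hoxc12 known from work on Polycomb, was wholly under the 204.0 kb segment with no H3K4me3. In Hoxa, 3 long non-coding genes were partly uncovered, as the coding genes around them were: Hoxaas3, which spans Hoxa5 and Hoxa6, was covered over 48.1%, and 5730596B20Rik over 71.6%. Hoxa11os, antisense to Hoxa11, met H3K4me3 over 12.6% of its span and H3K4me1 over 17.0%, whereas the Hoxa11 span met neither. Reads of a precipitation carry no strand, so a mark cannot be given to the gene or to its antisense partner.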
